A study of Saccharomyces cerevisiae with 11 samples.

Results

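The genes described here are the 9 B-type and G1 cyclin genes of budding yeast that partner the cell cycle kinase Cdc28, together with SIC1, which encodes an inhibitor of that kinase. The members were CLN1, CLN2, CLN3, CLB1, CLB2, CLB3, CLB4, CLB5, CLB6 and SIC1, named as a gene family and not selected by a threshold on their values. Each was measured by 1 probe set of an Affymetrix Yeast Genome 2.0 array, and all 10 were among the 5415 genes tested of the 5449 yeast genes with a probe set. Their lowest signal on any array was 273, against a background of 5.09 set by the probe sets of the fission yeast S. pombe on the same array.

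The values came from 11 arrays of poly(A) RNA from untreated log phase cultures of 5 S. cerevisiae strains. In R11 an arginine was inserted at position 11 of histone H2A, in K11 a lysine was inserted there, in ΔS15 serine 15 was deleted, and R11ΔS15 carried the inserted arginine and the deletion (2 arrays each). WT expressed unaltered H2A (3 arrays). The genotype entry for R11ΔS15 names lysine, whereas the titles, the design and the strain list of the study name arginine, which is used here. All strains, WT included, lack both chromosomal H2A genes and live on H2A from a plasmid, so WT is not a strain with its native histone loci. The cultures were asynchronous, and in such bulk RNA a different share of cells in a cell cycle phase and a different amount of RNA per cell cannot be told apart. The design calls the arrays of a strain biological replicates.

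Cdc28 is active only when bound to a cyclin, and the cyclin present directs it to the events of each phase. In the textbook order, Cln3 acts early in G1 and turns on the transcription factors SBF and MBF, which raise CLN1, CLN2, CLB5 and CLB6. Clb5 and Clb6 drive DNA replication, Clb3 and Clb4 act in S phase and in spindle assembly, and Clb1 and Clb2 drive mitosis. Sic1 holds Clb-bound kinase inactive in G1 until it is degraded, and SIC1 is transcribed at the end of mitosis. The transcripts of most of these genes rise and fall once per cycle, so their levels in asynchronous cultures are averages over the cycle.

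The mutant strains carry an inserted codon, a deleted codon or both in the plasmid H2A gene. The forward mutagenesis oligonucleotides of the study are shown because they define the strains in which the cyclins were compared, with the inserted codon in capitals (AGA for arginine, AAA for lysine). In the third oligonucleotide the serine codon that follows in the R11 oligonucleotide is missing.
R11: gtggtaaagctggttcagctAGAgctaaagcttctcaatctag
K11: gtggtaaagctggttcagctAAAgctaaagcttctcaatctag
R11ΔS15: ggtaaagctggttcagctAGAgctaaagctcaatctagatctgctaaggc

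Some features of the arrays bear on the values below and are not given in the sample labels. The hybridization controls bioC, bioD and cre were brighter on 6 arrays (R11, K11 and WT replicates 1 and 2, mean log2 signal 10.81 to 10.98) than on the other 5 (ΔS15, R11ΔS15 and WT replicate 3, 10.61 to 10.66). The ratio of the 3' to the 5' ACT1 probe sets was 1.26 to 1.35 on the 6 arrays and 1.04 to 1.11 on the 5. Only WT had arrays in both sets, so the serine 15 deletion and the array set overlap almost fully. In addition, the genes of chromosome IX stood 1.67-fold above the median array on ΔS15 replicate 1 and on R11ΔS15 replicate 2. No member lies on chromosome IX. The a-type mating marker STE2, which encodes the alpha factor receptor, had a signal of 3968 to 4606 on the arrays, and all 7 genes of the a-cell list were above background. The strain list of the study gives the strains as MATa. All 4 genes of the alpha-cell list were above background too, the pheromone genes MF(ALPHA)1 at 29.1 to 64.2 and MF(ALPHA)2 at 76.2 to 114, the receptor gene STE3 at up to 224, and the agglutinin gene SAG1 at 645 to 823.

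No cyclin gene and not SIC1 passed the test in any mutant. With limma and Benjamini-Hochberg adjustment over all tested genes, 0 of 10 members differed from WT in R11, K11, ΔS15 or R11ΔS15, and 0.0% of all tested genes did in each comparison. None of the 10 had an unadjusted p under 0.05 either, none differed 2-fold, and in none did the arrays of a mutant lie wholly above or wholly below the 3 WT arrays. Among all tested genes, a 2-fold difference was met by 0.222% in ΔS15, 0.24% in R11ΔS15, 0.0923% in R11 and 0.0739% in K11. Arrays without overlap, with the mutant higher, occurred for 7.9% of all genes in ΔS15, 10.6% in R11ΔS15, 3.62% in R11 and 4.6% in K11. With the mutant lower, they occurred for 7.79% in ΔS15, 12.6% in R11ΔS15, 4.71% in R11 and 4.17% in K11.

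**Figure D1:**
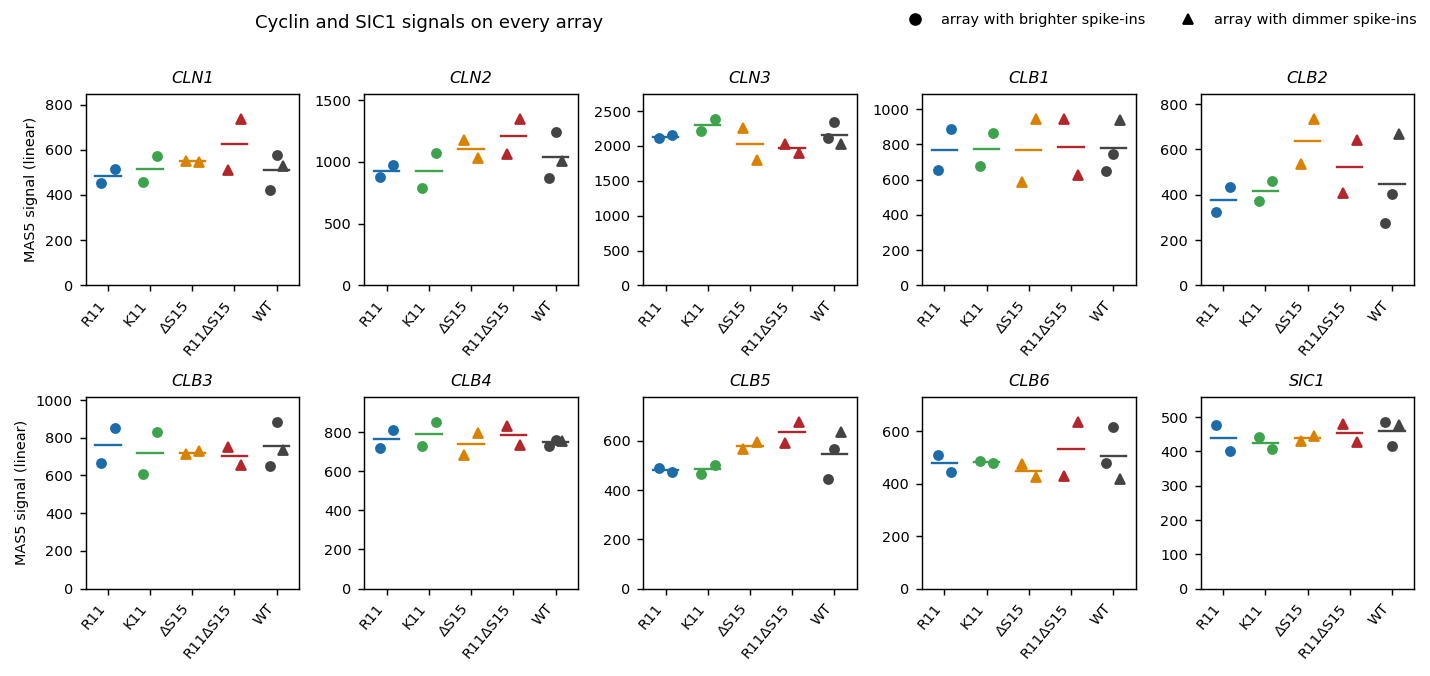
MAS5 signal (linear scale from 0) of each cyclin gene and SIC1 on every array, by strain, with a line at the strain's mean. Circles are the 6 arrays with brighter hybridization controls and triangles the 5 with dimmer ones. In every panel the arrays of each mutant overlap those of WT, and CLB2 spans the widest range, from 273 on WT replicate 1 to 736 on ΔS15 replicate 2.

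CLN3, the most upstream G1 cyclin gene, varied little. Its signal was 2115 and 2155 in R11, 2219 and 2393 in K11, 2257 and 1800.0 in ΔS15, and 2029 and 1903 in R11ΔS15, against 2113, 2337 and 2024 in WT. The arrays of each mutant overlapped those of WT, and the lowest value was ΔS15 replicate 2. The log2 fold change was -0.13 ± 0.11 (SE) in R11ΔS15 (limma adjusted p = 0.717) and 0.10 ± 0.11 in K11 (adjusted p = 0.9999). The 95% confidence intervals in the 4 mutants lay within -0.38 and 0.35.

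CLN1 and CLN2 encode the paired late G1 cyclins that promote budding and the removal of Sic1. CLN1 had a signal of 452 and 513 in R11, 458 and 570.4 in K11, 549.8 and 548 in ΔS15, and 512 and 738 in R11ΔS15, against 420.2, 575 and 530.3 in WT. CLN2 had a signal of 878 and 972 in R11, 790.0 and 1070.4 in K11, 1181 and 1036 in ΔS15, and 1061 and 1351 in R11ΔS15, against 870.4, 1242 and 1003 in WT. For each of these genes R11ΔS15 replicate 2 was the highest of all arrays, and the other arrays of R11ΔS15 and those of the remaining mutants lay among the WT values or, for the lowest CLN2 array (K11 replicate 1), below them. In R11ΔS15 the log2 fold change was 0.29 ± 0.19 for CLN1 (adjusted p = 0.630) and 0.22 ± 0.18 for CLN2 (adjusted p = 0.696). Without R11ΔS15 replicate 2, which also had the raised chromosome IX, these values were 0.02 and 0.05.

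The S phase cyclin genes CLB5 and CLB6 behaved differently from one another, although no test of that difference was made. CLB5 had a signal of 489.5 and 475 in R11, 467 and 502 in K11, 566 and 597 in ΔS15, and 593 and 678 in R11ΔS15, against 445, 566 and 635 in WT. All 4 arrays without serine 15 were thus at or above 566, as were WT replicates 2 and 3, while the R11 and K11 arrays lay between 467 and 502. CLB6 had a signal of 510.3 and 446 in R11, 487 and 481 in K11, 474 and 425 in ΔS15, and 429.9 and 637 in R11ΔS15, against 479, 617 and 418 in WT. Its extremes were an R11ΔS15 array and a WT array, and the WT arrays alone spanned 1.48-fold. The log2 fold change of CLB5 was 0.10 ± 0.15 in ΔS15 and 0.22 ± 0.15 in R11ΔS15 (adjusted p = 0.902 and 0.642), and that of CLB6 was -0.15 ± 0.19 and 0.07 ± 0.19.

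CLB3 and CLB4, whose products act in S phase and at the spindle, were nearly level across strains. CLB3 had a signal of 669 and 851 in R11, 610 and 831 in K11, 712 and 731 in ΔS15, and 752 and 658 in R11ΔS15, against 651, 885 and 733 in WT. CLB4 had a signal of 718 and 812 in R11, 728 and 853 in K11, 681 and 796 in ΔS15, and 833 and 733 in R11ΔS15, against 727, 759 and 756 in WT. For CLB4, the 2 arrays of each mutant lay farther from each other than the mutant's mean lay from that of WT. Their log2 fold changes against WT ranged from -0.09 (CLB3 in R11ΔS15) to 0.08 (CLB4 in K11).

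CLB1 encodes a mitotic cyclin related to Clb2. Its signal was 653 and 887 in R11, 679.8 and 865 in K11, 586 and 945 in ΔS15, and 946 and 625 in R11ΔS15, against 646, 747 and 936 in WT. The strain means nearly coincided, at 765 in ΔS15, 786 in R11ΔS15, 770.0 in R11 and 773 in K11, against 777 in WT, while arrays of one strain differed by up to 1.61-fold. The lowest CLB1 signals of all arrays were those of ΔS15 replicate 1 (586) and R11ΔS15 replicate 2 (625), the arrays with raised chromosome IX genes, and the other array of each of these strains was the highest or second highest (945 and 946). Whether the chromosome IX state has a part in this was not tested.

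CLB2, which encodes the main mitotic cyclin and is itself activated by Clb2-bound Cdc28, had the largest log2 fold changes against WT in ΔS15 and R11ΔS15, though not in R11 or K11. Its signal was 322 and 433 in R11, 371 and 460.4 in K11, 535 and 736 in ΔS15, and 409.6 and 639 in R11ΔS15, against 273, 401 and 668 in WT. The WT arrays spanned 2.44-fold, wider than any mutant, so that both ΔS15 arrays lay above WT replicates 1 and 2 and only 1 of them above WT replicate 3. CLB2 averaged 636 ± 142 in ΔS15 (SD, n = 2) and 448 ± 201 in WT (SD, n = 3). The log2 fold change was 0.58 ± 0.32 in ΔS15, with a 95% confidence interval of -0.13 to 1.29 (adjusted p = 0.782), and 0.29 ± 0.32 in R11ΔS15, with an interval of -0.42 to 0.999 (adjusted p = 0.790). In R11 and K11 it was -0.16 and -0.02.

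The CLB2 signal moved with the array set. It was 409.6 to 736 on the 5 arrays with dimmer hybridization controls and 273 to 460.4 on the 6 with brighter ones, a difference in mean log2 signal of 0.66. When the array set was added to the fit, so that R11 and K11 were set against WT replicates 1 and 2 and the strains without serine 15 against WT replicate 3 alone, the log2 fold change of CLB2 was -0.09 in ΔS15, -0.39 in R11ΔS15, 0.17 in R11 and 0.32 in K11, and the sign was turned round in all 4. CLB2 without WT replicate 3 was 0.92 in ΔS15, and without WT replicate 1 it was 0.28. The value for R11ΔS15 was -0.03 without its replicate 2. The sign of CLB2 in the strains without serine 15 thus changed with the WT arrays they were set against, a change that rests on 1 WT array. CLB5 moved with the set too, at 566 to 678 on the 5 arrays against 445 to 566 on the 6, a log2 difference of 0.32. For CLN1, CLN2 and CLN3 the difference was 0.21, 0.22 and -0.15.

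SIC1 was the steadiest member. It had a signal of 478 and 401 in R11, 442 and 406 in K11, 431 and 446 in ΔS15, and 481 and 428 in R11ΔS15, against 487, 415 and 478 in WT. The highest array was only 1.21-fold above the lowest, and the arrays of each mutant overlapped those of WT. Its log2 fold changes ran from -0.11 ± 0.14 in K11 to -0.02 ± 0.14 in R11ΔS15, and the 95% confidence intervals in the 4 mutants lay within -0.41 and 0.29.

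**Figure D2:**
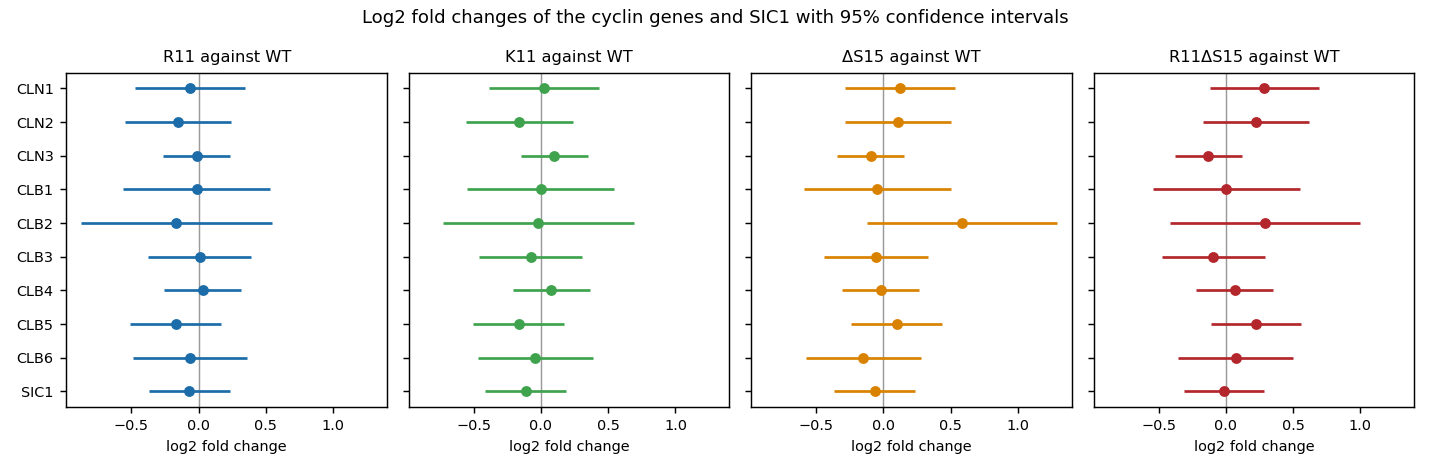
Log2 fold change against WT of each cyclin gene and SIC1 in the 4 mutants (points) with the 95% confidence interval of the limma fit (lines). Every interval includes 0, and the interval of CLB2 is the widest, reaching 1.29 in ΔS15.

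The intervals show how large a change the spread between arrays leaves possible, in a fit without the array set. Over all members, the 95% confidence intervals reached from -0.59 to 1.29 in ΔS15, from -0.54 to 0.999 in R11ΔS15, from -0.87 to 0.54 in R11 and from -0.73 to 0.69 in K11. CLB2 set both limits in R11 and K11 and the upper limit in ΔS15 and R11ΔS15. Without CLB2 no interval went beyond -0.59 or 0.69, which is 1.62-fold upward, so that a 2-fold change lay outside the intervals of the other 9 members in every mutant. In ΔS15 and R11ΔS15 the array set overlaps almost fully with the deletion, and the intervals do not cover a shift between the sets. The median log2 fold change of the 10 members was -0.03 in ΔS15 and 0.07 in R11ΔS15, beside 0.00 for all tested genes in each. It was -0.06 in R11 and -0.03 in K11, beside -0.02 in R11 and -0.01 in K11 for all tested genes.

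The comparisons among mutants gave no calls either. Between R11ΔS15 and ΔS15, between R11 and K11, and for the effect of R11 without serine 15 against its effect with serine 15, 0 of 10 members passed, beside 0.0% of all tested genes. R11ΔS15 minus ΔS15 gave log2 differences of -0.29 to 0.22 over the members, and R11 minus K11 gave -0.15 to 0.08. The effects of R11 in the 2 serine backgrounds differed by -0.13 to 0.30. An F test among the 5 strains called 0 members and 0.0% of all genes. These tests share arrays, WT above all, and are not independent of each other.

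Averaging the deletion of serine 15 over the strains with and without R11 gave the smallest p-values of any comparison, with 0 of 10 members and 0.0% of all genes passing. The 4 arrays without serine 15 were here set against the 5 of R11 and WT. CLB2 averaged 0.52 ± 0.24 higher on the log2 scale (unadjusted p = 0.0526, adjusted p = 0.247) and CLB5 0.25 ± 0.11 higher (unadjusted p = 0.0527, adjusted p = 0.247). CLN1 and CLN2 each had a log2 difference of 0.24 (adjusted p = 0.346 and 0.328), CLN3 one of -0.11, and SIC1 one of -0.01. With the array set in the fit, the value was -0.32 for CLB2 and -0.04 for CLB5.

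The members differed widely in their range over the arrays, with strains and array sets pooled. CLB2 had a 2.69-fold range over the 11 arrays, wider than that of 97.2% of all tested genes. This range holds the difference between the array sets, with CLB2 at 273 to 460.4 on the brighter set and 409.6 to 736 on the dimmer one. The range was 1.76-fold for CLN1, 1.71-fold for CLN2, 1.62-fold for CLB1, 1.53-fold for CLB6, 1.52-fold for CLB5 and 1.45-fold for CLB3. CLN3 (1.33-fold), CLB4 (1.25-fold) and SIC1 (1.21-fold) were steadier than the median gene, and SIC1 was at the 9.47th percentile. The standard deviation between arrays of one strain was also highest for CLB2, at the 97.1st percentile of all genes, followed by CLB1 at the 90.5th. It holds the array set as well, since WT has arrays of both sets.

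**Figure D3:**
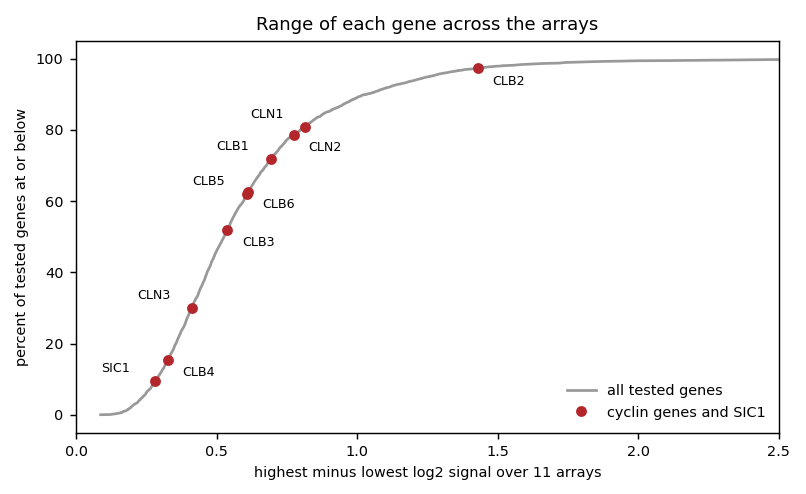
Range over the 11 arrays (highest minus lowest log2 signal, x axis) against the percentage of tested genes with that range or less (y axis). The line is all tested genes and the points are the cyclin genes and SIC1, from SIC1 at 0.28 to CLB2 at 1.43.

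Several of these genes are ancient duplicates of each other, and 4 of them lie in facing pairs of neighbours. CLB1 (YGR108W) and CLB6 (YGR109C) adjoin on chromosome VII, and CLB2 (YPR119W) and CLB5 (YPR120C) adjoin on chromosome XVI, each pair with its 3' ends facing. CLN1 (YMR199W) is on chromosome XIII, CLN2 (YPL256C) on XVI, CLN3 (YAL040C) on I, CLB3 (YDL155W) on IV, and CLB4 (YLR210W) and SIC1 (YLR079W) on XII. For the duplicates and for the neighbours, 6 relations in all, the log2 signals were correlated across the 11 arrays. The p-values are from permutation tests (2-sided) with Benjamini-Hochberg adjustment over the 6. These tests treat the arrays as exchangeable, although the arrays share strains, array sets and replicate numbers. In the set with brighter controls, CLN1, CLN2, CLB1, CLB2, CLB3 and CLB4 were each higher on every replicate 2 than on every replicate 1. SIC1 was lower there. The values of r within that set hold this shift too, as do deviations from strain means. Among pairs of members that are neither duplicates nor neighbours, r ran from -0.57 (CLB3 and SIC1) to 0.85 (CLB1 and CLB4). It was 0.78 for CLN1 and CLB5. A high r was thus not particular to duplicates or neighbours.

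CLN1 and CLN2 went together on nearly all arrays, with Pearson's r = 0.90 (permutation p = 0.0003, adjusted p = 0.0018) and Spearman's rho = 0.91 (permutation p = 0.00028, adjusted p = 0.00168). Without the 2 arrays farthest from the median of CLN1, WT replicate 1 and R11ΔS15 replicate 2, r was 0.89, and within the 6 arrays with brighter controls it was 0.88. As deviations from strain means r was 0.90. In the brighter set both genes were higher on every replicate 2 (CLN1 513 to 575, CLN2 972 to 1242) than on every replicate 1 (CLN1 420.2 to 458, CLN2 790.0 to 878). The values of r within the set and within strains thus hold this shared shift. Whether the genes go together beyond it was not tested.

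CLB2 and CLB5, the neighbours, had r = 0.81 (permutation p = 0.00296, adjusted p = 0.00888) and rho = 0.78 (permutation p = 0.00578, adjusted p = 0.0173). Without WT replicate 1 and ΔS15 replicate 2 r was 0.77. Within the 6 arrays with brighter controls r was 0.51, and the 5 other arrays were too few for a value. As deviations from strain means r was 0.89. Such deviations, in this pair and the others, keep the array set, since WT holds arrays of both sets. On WT replicate 3 CLB2 deviated by 0.68 and CLB5 by 0.23, and on WT replicate 1 by -0.61 and -0.29. The other neighbours, CLB1 and CLB6, ran in opposite directions, with r = -0.61 (permutation p = 0.0463, adjusted p = 0.0695) and rho = -0.65 (permutation p = 0.0328, adjusted p = 0.0491). Their r was -0.69 without ΔS15 replicate 1 and R11ΔS15 replicate 1, -0.25 within the brighter set, and -0.68 as deviations from strain means.

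The duplicates CLB3 and CLB4 had r = 0.62 (permutation p = 0.0449, adjusted p = 0.0695) and rho = 0.71 (permutation p = 0.0188, adjusted p = 0.0376), with r = 0.76 without WT replicate 2 and K11 replicate 1 and r = 0.75 in the brighter set. CLB1 and CLB2 had a pooled r of 0.36 (permutation p = 0.279, adjusted p = 0.335) and rho of 0.29 (permutation p = 0.389, adjusted p = 0.466), with r = 0.59 without ΔS15 replicate 1 and R11ΔS15 replicate 1. Within the 6 arrays with brighter controls, however, r for CLB1 and CLB2 was 0.89. There CLB1 was 646 to 680 on replicates 1 and 747 to 887 on replicates 2, and CLB2 273 to 371 and 401 to 460.4. On the other 5, CLB1 was low while CLB2 was not on the pair of arrays with raised chromosome IX genes. CLB5 and CLB6 had r = 0.16 (permutation p = 0.613, adjusted p = 0.613) and rho = -0.16 (permutation p = 0.640, adjusted p = 0.640), with r = 0.19 without WT replicate 1 and K11 replicate 1, and 0.84 within the brighter set.

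**Figure D4:**
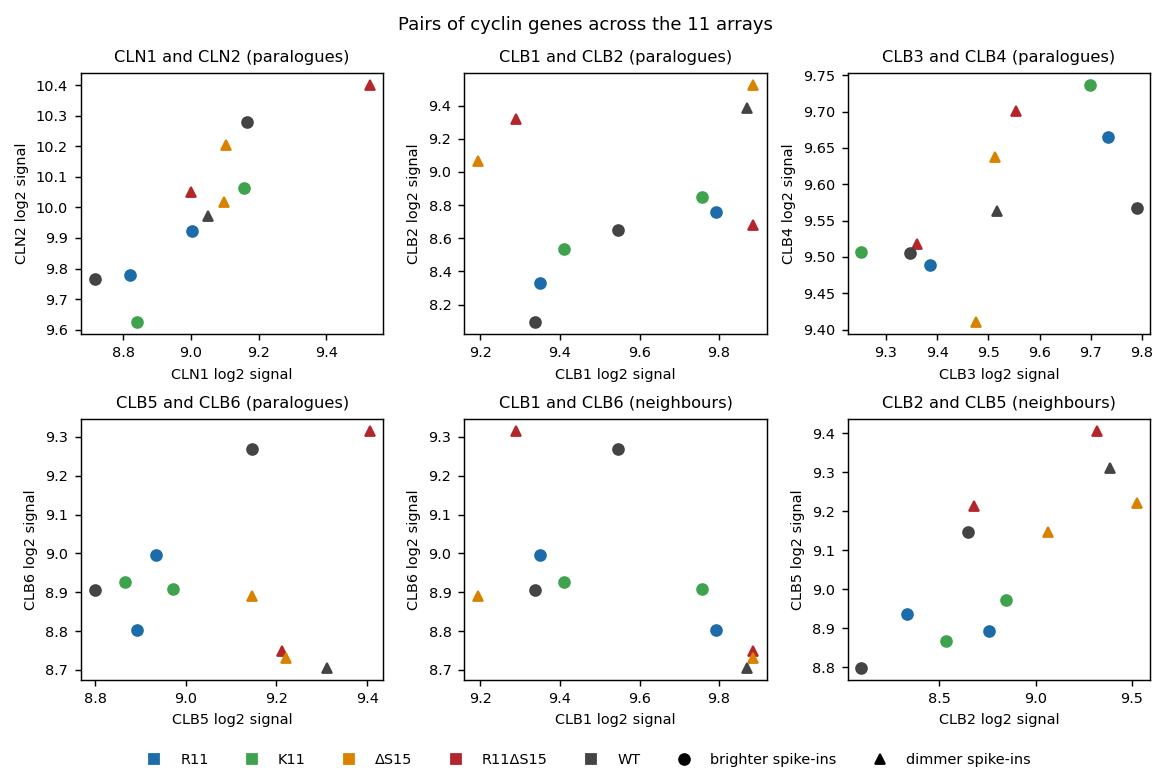
Log2 signals of 6 pairs of cyclin genes, 1 point per array, coloured by strain, with circles for arrays with brighter and triangles for arrays with dimmer hybridization controls. CLN1 and CLN2 lie along one line (r = 0.90), whereas CLB1 and CLB2 follow a line among the circles and not among the triangles (pooled r = 0.36).

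The genes whose log2 signals followed a member most closely over the 11 arrays are given as a description, since they were picked from all tested genes for this likeness. For CLN2 they were TOS1 (r = 0.91), named as a target of SBF, DUN1 (r = 0.90), a checkpoint kinase gene, and ARP3 (r = 0.90), which encodes a subunit of the Arp2/3 complex. TOS1 had a signal of 3665 to 4764 and DUN1 one of 631 to 1115, highest for DUN1 on R11ΔS15 replicate 2, as for CLN2. For CLB2 they were DNM1 (r = 0.98), a dynamin-related gene of mitochondrial division, KHA1 (r = 0.98), a putative antiporter gene, and AVT1 (r = 0.98), a vacuolar amino acid transporter gene. DNM1 had a signal of 529 and 625 in ΔS15 and of 343, 462 and 625 in WT, so that WT replicate 3 was as high as the highest ΔS15 array, as it nearly was for CLB2. For SIC1 they were MTQ2 (r = 0.96), NVJ1 (r = 0.91) and RAD28 (r = 0.91), all of narrow range, with RAD28 at 185 to 205.

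The wider Cdc28 network was described with 9 lists of 130 genes, of which 128 were tested. No gene of any list passed the test in R11, K11, ΔS15 or R11ΔS15 against WT, as none did in the whole table. The 4 genes of Cdc28 and its direct partners had a median log2 fold change of 0.09 in ΔS15, 0.05 in R11ΔS15, -0.04 in R11 and -0.08 in K11. Among the 7 other inhibitors and kinases of Cdk, 1 gene lay below WT without overlap in R11, as 4.71% of all tested genes did, which was HSL1, a kinase gene that restrains the Cdc28 inhibitor Swe1. HSL1 had a signal of 851 and 836 in R11, against 1005, 975 and 893 in WT. MIH1, which encodes the phosphatase that opposes Swe1, lay above WT without overlap in K11, as 4.6% of all tested genes did, at 478 and 481 against 437, 450.3 and 462 in WT.

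The transcription factor lists held no gene that passed the test. The 9 factors of G1/S had medians between -0.10 in K11 and 0.12 in R11ΔS15, beside -0.01 and 0.00 for all tested genes, and MBP1, the DNA-binding subunit gene of MBF, had a signal of 136 and 124 in R11, against 150.2, 140.2 and 178 in WT. Of the 8 factors of G2/M and M/G1, 7 were tested, and 3 lay above WT without overlap in R11ΔS15, beside 10.6% of all tested genes. FKH1, a forkhead factor gene on chromosome IX, was at 455 and 766 in R11ΔS15, against 365, 432 and 424 in WT, the highest value being on the array with raised chromosome IX genes. YHP1, a repressor gene of M/G1, was at 696 and 750.2 in K11, against 642, 647 and 609 in WT.

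The 27 tested targets of SBF and MBF, the factors that drive CLN1 and CLN2, had medians of -0.01 in ΔS15, 0.04 in R11ΔS15, -0.03 in R11 and -0.03 in K11. Their named members were MNN1, a mannosyltransferase gene, at 573 and 654 in R11ΔS15 against 701, 931 and 676 in WT, and CDC9, the DNA ligase gene, at 466 and 479 in K11 against 546, 628 and 499 in WT. The CLB2 cluster, whose genes peak with CLB2 in G2/M, had 21 of 22 members tested, with medians of 0.07 in ΔS15, 0.02 in R11ΔS15, 0.01 in R11 and 0.05 in K11. In ΔS15, 16 of the 21 were above 0, and 3 lay above WT without overlap, beside 7.9% of all tested genes. CDC20, the activator of the anaphase-promoting complex, was at 491 and 458 in ΔS15, against 359, 411 and 454 in WT. In R11ΔS15, 5 lay above and 2 below WT without overlap, beside 10.6% and 12.6% of all tested genes. BUD3, a bud site gene, was at 373 and 436 in R11ΔS15, against 498, 487 and 462 in WT. The value of CLB2 itself in ΔS15 (0.58) was thus larger than the median of the genes that peak with it (0.07, beside 0.00 for all tested genes).

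The SIC1 cluster, 20 genes of late mitosis and early G1, had 3 members above 0 in R11 and 4 in K11, with medians of -0.09 and -0.11. It had 12 in ΔS15 and 14 in R11ΔS15, with medians of 0.04 and 0.07. The medians of all tested genes were -0.02 in R11, -0.01 in K11, and 0.00 in ΔS15 and in R11ΔS15. In ΔS15, 1 gene of the cluster lay above and 1 below WT without overlap, beside 7.9% and 7.79% of all tested genes. EGT2, a gene of septum breakdown, had a signal of 1090 and 1316 in ΔS15, against 1393, 1758 and 1402 in WT, and NIS1, a bud neck gene, one of 604 and 598 against 438, 527 and 577 in WT. In the list of 30 ubiquitin ligase and mitotic exit genes the medians lay between -0.01 in R11ΔS15 and 0.03 in R11. CDC26, a subunit gene of the anaphase-promoting complex, was at 255 and 262 in ΔS15, against 381, 473 and 282 in WT. MND2, another subunit gene of that complex on chromosome IX, was at 512 and 279.9 in ΔS15, against 263, 216 and 279.1 in WT, high only on the array with raised chromosome IX genes.

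The Pho85 cyclins and other cyclins, which bind kinases other than Cdc28, had medians of 0.19 in ΔS15, 0.18 in R11ΔS15, -0.06 in R11 and -0.02 in K11. The medians of all tested genes were 0.00, 0.00, -0.02 and -0.01. In each of ΔS15 and R11ΔS15, 13 of these 15 genes were above 0, and 0 passed the test. In ΔS15, 2 lay above and 0 below WT without overlap, beside 7.9% and 7.79% of all tested genes. In R11ΔS15, 3 lay above and 1 below, beside 10.6% and 12.6%. BUR2, the cyclin gene of the Bur1 kinase, was at 332 and 362 in ΔS15, against 136, 225 and 317 in WT (log2 fold change 0.70 ± 0.29, adjusted p = 0.782). PCL6, a Pho85 cyclin gene, was at 329 and 356 in R11ΔS15, against 232, 217 and 309.7 in WT (0.45 ± 0.16, adjusted p = 0.449). In both genes WT replicate 3, the WT array of the dimmer set, was the highest WT array. The part of the array set in these lists was not tested.

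Markers of cells that had left log phase were compared because cyclin transcripts depend on whether cells are dividing. The summed signal of 10 such genes was 4879 to 5696 in ΔS15, 5671 to 5783 in R11ΔS15, 5020 to 5452 in R11 and 5471 to 5718 in K11, against 4698 to 5251 in WT, and all 10 were above background on average. The sums of K11 and R11ΔS15 lay above those of WT. HSP12 alone was at 1723 to 3237 over all arrays and weighs heavily in the sums. Of the 10 genes, 9 were above 0 in K11 and 6 in R11ΔS15, where the medians of all tested genes were -0.01 and 0.00. In R11ΔS15, 2 lay above WT without overlap, beside 10.6% of all tested genes. HSP12, a stress gene of this list, was at 2609 and 2916 in R11ΔS15, against 1723, 2447 and 1809 in WT, and CTT1, the cytosolic catalase gene, at 248 and 220.4 against 139.7, 162 and 215 in WT. The summed signal of 12 meiotic genes was 1163 to 1413 over all arrays, with IME1, the inducer of meiosis, at 38.8 to 78.7. HOP1, a meiotic chromosome axis gene on chromosome IX, was at 170.0 and 109 in ΔS15, against 84.6, 74.9 and 91.5 in WT. SPS4, a sporulation gene, was at 244 and 250.0 in ΔS15, against 173, 158 and 229.6 in WT. Of the mating type lists, the protease gene BAR1, on chromosome IX, was at 1949 and 1529 in ΔS15, against 1040.5, 1076 and 1490 in WT. For HOP1 and BAR1 the higher ΔS15 value was on replicate 1, the array with raised chromosome IX genes. The pheromone gene MFA2 was at 3708 and 4324 in ΔS15, against 5364, 4568 and 4352 in WT. Of the 7 a-cell genes, 1 was above 0 in ΔS15, where the median of all tested genes was 0.00. The part of these marker genes in the cyclin values was not tested.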

How the data were processed

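Poly(A) RNA of 11 log phase cultures was hybridized to one-colour arrays, and the authors deposited MAS5 signal intensity values on a linear scale, scaled to a common trimmed mean (500.2 to 500.3 here after 2% was trimmed from each end). The MAS5 version is not given in the sources used here. No further scaling was applied. Probe sets were named with the array's annotation and the RefSeq R64 gene table. For a gene with several probe sets the one with the highest mean was used, and genes with a mean log2 signal above 2.35, the 95th percentile of the S. pombe probe sets, were tested. Log2 signals of all 5 strains were fitted together in limma 3.58.1 (R 4.3.3), with moderated variances with a trend and 6 residual degrees of freedom. P-values were adjusted over the 5415 tested genes by Benjamini-Hochberg, with a threshold of 0.05. The fit was tested on simulated data. Permutation tests used 100000 resamples. Figures were drawn with matplotlib 3.10.9. The number of arrays limits the precision. No pair of arrays held the same values for more than 0.00915% of probe sets.

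The members and gene lists were chosen with earlier results of these data known, and the 6 gene pairs and the ranks by range were added after values were seen. Named genes are all members, up to 2 genes of each list with the largest change against WT in any mutant among those without overlap of arrays, and the 3 genes best correlated with CLN2, CLB2 and SIC1. STE2, STE3, SAG1 and IME1 were named outside this rule, as markers of mating type and meiosis, after their values were seen. Promoter and protein sequences were not used here. The alternatives were an offset of 50, quantile normalization, median centring, other filters and probe set choices, each array left out, both arrays with raised chromosome IX left out, array weights, a replicate block, no variance trend, only the strains compared, the array set as a term, and unadjusted p-values.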

Additional observations from a re-analysis of the deposited data

How the results depend on the processing

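The count of members past the test was 0 in every comparison under all alternatives except the replicate block, also at an unadjusted p, and leaving out each array in turn gave 0 to 0. With the replicate number as a block, WT replicate 3 has no partner and drops out of the comparisons, so that the strains without serine 15 and the set of dimmer controls coincide among the other arrays and cannot be told apart. In this fit the count was 1 member in ΔS15 and 1 in R11ΔS15 against WT, 2 for the averaged deletion of serine 15 and 1 among the 5 strains. CLB2 was then 0.92 in ΔS15 (limma adjusted p = 0.0212), 0.63 in R11ΔS15 (adjusted p = 0.0252) and 0.69 for the averaged deletion (adjusted p = 0.00402), and CLB5 was 0.30 for the averaged deletion (adjusted p = 0.0373). Over all genes this fit called 173 in ΔS15, 343 in R11ΔS15, 1061 for the averaged deletion and 111 among the strains, against 0 in the reported fit. Other alternatives called genes outside the members too. Without WT replicate 3, 38 genes were called in ΔS15, 128 in R11ΔS15, 592 for the averaged deletion and 34 among the strains. Array weights gave 303 for the averaged deletion. The absence of calls over all genes thus depended on WT replicate 3. The labels give the replicate numbers no meaning beyond the replicate. Deviations of same-numbered arrays correlated at 0.49 to 0.66 among R11, K11 and WT, and at -0.05 to 0.21 where ΔS15 or R11ΔS15 was involved. The numbers were thus not taken as pairs in the fit of all 5 strains. Among R11, K11 and WT this leaves a shared shift by number in the spread, which can widen the intervals. With the block, 0 members were called in R11 or K11 against WT, or between R11 and K11.

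Of 1190 log2 fold changes of members under the alternatives, 121 differed in sign from the reported value, and none of those was called. Many alternatives cannot move a given value, such as leaving out an array of a strain outside the comparison, or no variance trend. The share of sign changes is therefore no measure of stability. The 9 reported values of at least 0.2 in size had 8 sign changes. Leaving out 1 array moved CLB1 in ΔS15 from -0.39 (without ΔS15 replicate 2) to 0.30 (without ΔS15 replicate 1). It moved CLB2 from 0.28 (without WT replicate 1) to 0.92 (without WT replicate 3) in ΔS15, and from -0.03 (without R11ΔS15 replicate 2) to 0.63 (without WT replicate 3) in R11ΔS15. CLN1 in R11ΔS15 was 0.02 without replicate 2 of that strain and 0.55 without replicate 1.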
